A study of Mus musculus with 577 samples.

Results

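The oocytes described here were cut from formalin-fixed sections of mouse ovary and fall into 5 oocytes of primary follicles and 7 oocytes of secondary to early antral follicles (secondary-antral oocytes), as their labels give the follicle class. They are 12 of the 577 samples of the series, and were chosen as every oocyte column of the read-count table made after 24 h of fixation in formalin. The series as a whole tests direct lysis of laser-captured single cells followed by single-cell cDNA amplification, in cultured cells and in ovaries, after alcohol or formalin fixation. All 12 oocytes shared the same handling. Ovaries came from female mice of 8 weeks, were snap-frozen and cut into 15 µm cryosections, and the sections were fixed in 10% formalin neutral buffer at room temperature for 24 h, stained with cresyl violet and used for laser-capture microdissection. Each library was made from 1 oocyte by DRaqL-Protease-Smart-seq2, in which the cell is lysed in a denaturing detergent with a protease and polyadenylated RNA is copied by oligo-dT priming, and was read from its 3′ end. The study's text places the amplification methods it compares, DRaqL-Protease-Smart-seq2 among them, on sections of a shared ovary, and the labels name no mouse, so the 5 and the 7 oocytes each count as 1 sample of their stage. For that reason no p-value is given, and differences are shown by the values of the oocytes, their mean ± SD over oocytes and whether the stages overlap. A captured oocyte is a slice of the cell within the section, so a larger slice and more RNA per volume of cytoplasm cannot be told apart.

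The mammalian oocyte enlarges many times while its follicle passes from the primary stage, with a single layer of granulosa cells, through the secondary to the antral stage. During this growth it lays down the zona pellucida, secretes growth factors that act on the granulosa cells around it, and stores maternal mRNA and protein for meiotic maturation and the early embryo. Transcription factors of the early follicle, such as the basic helix-loop-helix protein SOHLH1, are known to act at the beginning of this programme, whereas gene families such as the oocyte-specific homeobox (Obox) genes are known as products of the growing oocyte.

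The libraries held 284012 to 1997001 reads on protein-coding genes in primary oocytes and 188906 to 1434901 in secondary-antral oocytes. Protein-coding genes with at least 1 read, called detectable genes, numbered 12438 ± 1101 (SD, n = 5) and 12587 ± 2061 (SD, n = 7). One secondary-antral library, oocyte 3, stood apart. It had 8201 detectable genes against 12329 to 14320 in the other 6 secondary-antral oocytes, and it had no read for 1616 genes that were detected in all 11 other oocytes, whereas the largest such number for any other oocyte was 309. Its reads on protein-coding genes per read of ERCC spike-in, an artificial RNA mix added in equal volume to each tube, came to 0.683 against 23.8 to 38.2 in the other 6. Counts without this oocyte are therefore given for each list of genes by role whose number past the threshold it changed. Among primary oocytes 1 to 5 the same ratio was 1.26, 1.91, 6.85, 7.52 and 15.3, so that each primary oocyte lay below each secondary-antral oocyte other than oocyte 3. When every library was thinned to 188906 reads, the primary oocytes had 9247, 9715, 10492, 10853 and 11515 detectable genes, in the same order as their ratio to the spike-in, and the 6 other secondary-antral oocytes had 10989 to 11962.

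**Figure D1:**
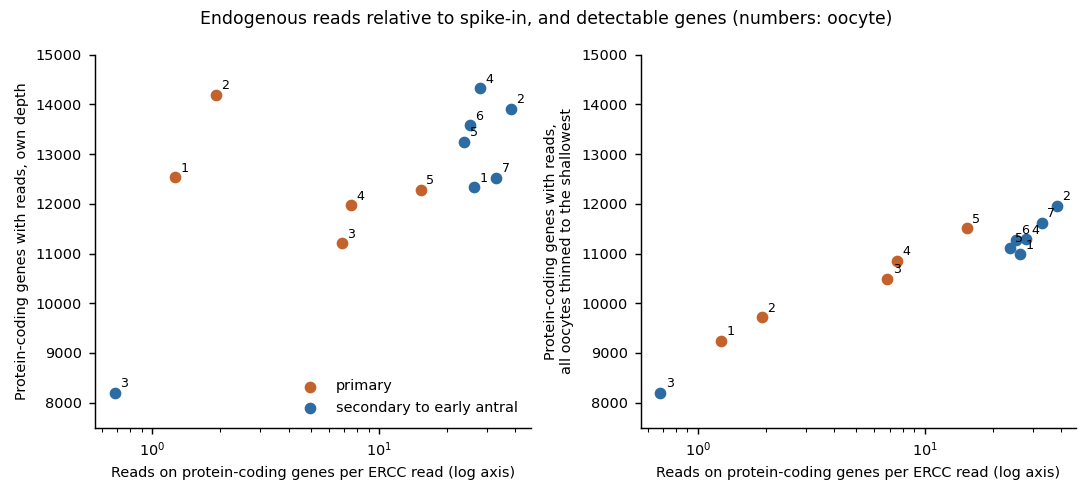
Detectable protein-coding genes (vertical axis, number) against reads on protein-coding genes per ERCC read (horizontal log axis) for the 5 primary (orange) and 7 secondary-antral (blue) oocytes, at each library's own depth (left) and after thinning to 188906 reads (right), with the oocyte number beside each point. Secondary-antral oocyte 3 has the lowest value on both axes, 8201 genes and a ratio of 0.683, and the thinned numbers of the primary oocytes go from 9247 to 11515 with their ratio.

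The stages also differed in how alike their oocytes were. Across genes, Spearman's rho between oocytes had a median of 0.567 over the 10 pairs of primary oocytes and of 0.833 over the 15 pairs of secondary-antral oocytes without oocyte 3. It was 0.548 between primary oocytes and the secondary-antral oocytes without oocyte 3. Oocyte 3 had a median of 0.582 with the other secondary-antral oocytes and of 0.454 with primary oocytes. These are descriptions across genes, which are not independent replicates, and the points share depth and detection. Protein-coding genes of the mitochondrial genome took 2.88% to 5.14% of the reads on protein-coding genes in primary oocytes. In secondary-antral oocytes they took 1.38% to 2.64%, without overlap. Mitochondrial ribosomal RNA is not part of these shares. It took 1.74% to 3.16% of the reads on all genes in primary and 1.10% to 3.16% in secondary-antral oocytes, with overlap.

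The label of oocyte was checked against 16 oocyte markers, all of which were detected in each stage. Their summed level was 2822 to 13765 reads per 1000000 reads on protein-coding genes (RPM) in primary oocytes and 26029 to 31667 RPM in secondary-antral oocytes, against 237 to 6187 RPM (median 906) in the 24 granulosa cells captured from the same kind of sections. Primary oocytes 1 and 2, at 2822 and 3305 RPM, therefore lay below the highest granulosa cell on this sum. Ddx4, a germ-cell RNA helicase, had a median of 595 RPM in granulosa cells as well. The 15 granulosa markers summed to 1208 to 2310 RPM in primary and 940 to 2023 RPM in secondary-antral oocytes, and to 4582 to 15072 RPM in granulosa cells. Of these markers, 2 of 14 above the detection filter were higher in primary and 1 higher in secondary-antral oocytes by more than the threshold used below, none without overlap. Over all genes 11% and 14.3% were past that threshold in these directions, so the marker counts lay near the background. Without secondary-antral oocyte 3 the numbers of markers were 2 and 3, with 1 marker higher in primary oocytes without overlap. The part of granulosa RNA in the stage differences was not tested. Stroma markers summed to 876 RPM in primary oocyte 1, of which the collagen gene Col1a2 made 567 RPM, and to 0 to 46.2 RPM in the other 11 oocytes. Markers of theca and interstitial cells summed to 0 to 247 RPM, those of endothelium to 5.29 to 154 RPM, those of smooth muscle to 0 to 138 RPM and those of blood to 0 to 170 RPM over all 12 oocytes. The 4 immune markers summed to at most 6.01 RPM, with Lyz2 at 0 in every oocyte.

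The sequence before the start of the stage genes is shown because SOHLH1 is a basic helix-loop-helix factor, a class of protein that binds E-boxes, and because 3 of the Obox genes share the stretches around their E-boxes. E-boxes (CANNTG, which reads the same pattern on both strands) were searched in the 250 bases before the RefSeq start of each gene (GRCm38.p6), and are in capitals. Of 32851 RefSeq promoters 66.2% hold at least 1 E-box in this window and 6.02% hold the form CACGTG, so a match is a description and not a binding site. GENCODE M21 exons cover 99 of the 250 bases of the Oosp1 window, so Oosp1 is shown up to that exon. They cover 250, 239 and 212 bases of the windows of Obox1, Obox5 and Obox7, which are therefore wholly or mostly annotated exon, that of Obox1 inside its annotated body. The Obox genes are shown only as 30 bases around their shared E-boxes. The Sohlh1 window, at chr2:25847249-25847498 on the minus strand, holds 5 E-boxes, 3 of them CACGTG and 2 CAGGTG, and the stretch of Oosp1 is chr19:11691151-11691301 on the minus strand.
Sohlh1: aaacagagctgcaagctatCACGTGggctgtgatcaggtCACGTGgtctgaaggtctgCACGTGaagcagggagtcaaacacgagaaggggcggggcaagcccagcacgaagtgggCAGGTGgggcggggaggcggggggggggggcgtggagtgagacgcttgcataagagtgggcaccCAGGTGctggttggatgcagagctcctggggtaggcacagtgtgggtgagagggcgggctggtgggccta
Oosp1: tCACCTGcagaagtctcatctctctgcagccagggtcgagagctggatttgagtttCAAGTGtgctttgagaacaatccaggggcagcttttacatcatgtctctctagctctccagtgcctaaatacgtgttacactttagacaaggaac
Obox1 CAAATG: ctttcagagcatCAAATGgtgggtgagaat
Obox5 CAAATG: ctttcagagcatCAAATGgtgggtgagaat
Obox7 CAAATG: ctttcagagcatCAAATGttgggtgagaat
Obox1 CAAGTG: atttgaatattgCAAGTGggtggagccagc
Obox5 CAAGTG: atttgaatattgCAAGTGggtggagccaac
Obox7 CAAGTG: atttgaatattgCAAGTGggtggagccaac

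The Obox windows are on the plus strand of chromosome 7, at chr7:15547137-15547166 and chr7:15547172-15547201 for Obox1, at chr7:15750238-15750267 and chr7:15750273-15750302 for Obox5, and at chr7:14659602-14659631 and chr7:14659637-14659666 for Obox7. In each of these genes the E-boxes start 35 bases apart. Over the 250 bases the identity was 87.0% between Obox1 and Obox5, 84.1% between Obox1 and Obox7 and 79.0% between Obox5 and Obox7, but 44.1% between Obox1 and Obox2. Of the 39 genes named below for their size of difference, 27 matched a RefSeq promoter by symbol and 23 of these hold an E-box. Genes not matched were Fgf8, Gm3286, Hes1, Zfp704, A930011G23Rik, Gm13023, C87977, Eif4e1b, Fam19a1, Zfhx4, Gpr143 and Antxr1.

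The 3 genes that mark the comparison separated the stages in opposite directions. Obox1, an oocyte homeobox gene annotated at chr7:15388948-15556866 (GRCm38), was at 35.6, 32, 106, 12.2 and 87.5 RPM in primary oocytes 1 to 5 and at 653 to 3203 RPM (median 2636) in the secondary-antral oocytes. Every secondary-antral oocyte was above every primary oocyte, and the mean was 40.5-fold higher, 2214 ± 972 RPM (SD, n = 7) against 54.6 ± 39.9 RPM (SD, n = 5). Its annotated body overlaps those of Obox2 and Obox3, so reads of these genes may not be fully separated. Oosp1, which encodes an oocyte-secreted protein and lies at chr19:11667460-11691150, was at 15.1, 9.51, 59.9, 63.2 and 84.1 RPM in primary oocytes and at 1231 to 1948 RPM (median 1751) in secondary-antral oocytes. The stages again did not overlap, with a 35.3-fold difference of the means (1636 ± 270.2 against 46.4 ± 32.5 RPM). Sohlh1, at chr2:25842995-25847248, was at 32.4, 324, 282, 197 and 293 RPM in primary oocytes and at 0 to 31.9 RPM (median 3.30) in secondary-antral oocytes, a mean 26.4-fold higher in primary oocytes (226 ± 118 against 8.56 ± 11.6 RPM). The margin was narrow at 1 point: primary oocyte 1 held 32.4 RPM and secondary-antral oocyte 1 held 31.9 RPM.

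Pooled over the oocytes of a stage, Obox1 had 158 reads in primary oocytes, a level of 40.4 RPM (95% exact Poisson interval 34.3 to 47.2), and 2485 RPM (2440.3 to 2530.1) in secondary-antral oocytes. Sohlh1 had 236 RPM (221 to 252) from 926 reads in primary oocytes and 8.2 RPM (5.83 to 11.2) from 39 reads in secondary-antral oocytes. These intervals cover counting error only and leave out the spread between oocytes.
Set against the spike-in in place of the total, Obox1 was at 0.0451 to 1.34 reads per 1000 ERCC reads in primary oocytes and at 17.2 to 106 in the secondary-antral oocytes other than oocyte 3, which had 0.900. Sohlh1 was at 0.0410 to 4.49 reads per 1000 ERCC reads (median 1.48) in primary oocytes and at 0 to 0.838 (median 0.139) in these 6 secondary-antral oocytes, so that the stages overlapped on this scale.

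**Figure D2:**
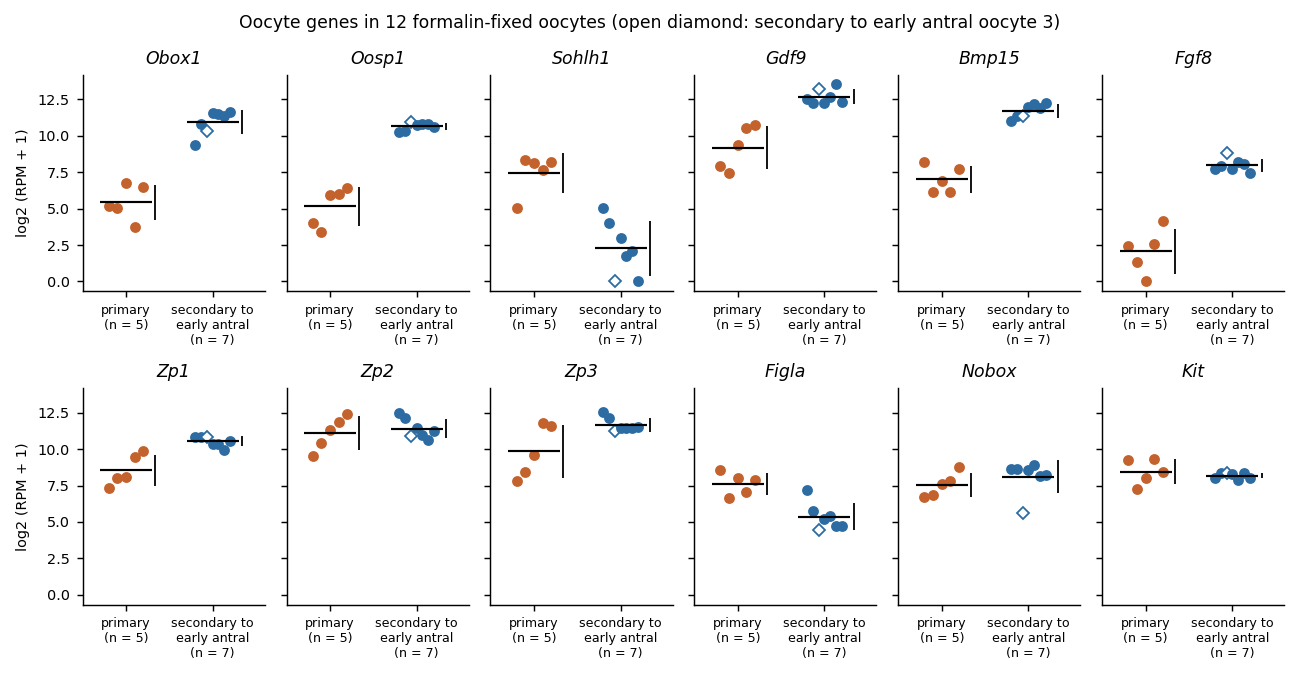
Level of 12 oocyte genes as log2 (RPM + 1) (vertical axis) in the 5 primary (orange) and 7 secondary-antral (blue) oocytes, 1 point per oocyte, with the group mean (horizontal line) and SD (vertical line), and secondary-antral oocyte 3 as an open diamond. Obox1, Oosp1, Gdf9, Bmp15, Fgf8 and Zp1 lie higher in every secondary-antral oocyte, Sohlh1 lower, and Zp2, Zp3, Nobox and Kit overlap between the stages.

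Across all genes, 12956 protein-coding genes had log2 (RPM + 1) above 4, which is 15 RPM, in at least 1 of the 12 oocytes. A difference of the stage means of log2 (RPM + 1) beyond 1.8, or 3.48-fold on that scale, was used as the threshold. It was passed by 1854 genes higher in secondary-antral oocytes (14.3%) and by 1431 genes higher in primary oocytes (11%). No overlap between the oocytes of the stages was found for 502 genes higher in secondary-antral oocytes (3.87%) and for 325 higher in primary oocytes (2.51%). Without secondary-antral oocyte 3 the numbers past the threshold were 2294 and 1177, and those without overlap 1012 and 391. The scale decided the balance of the directions. Under scaling to the spike-in, 6418 genes were higher in secondary-antral and 130 in primary oocytes past the threshold, 98.0% of them in the first direction against 56.4% in RPM, and the median difference of all genes moved from -0.03 to 1.63. All differences below are on the log2 (RPM + 1) scale as secondary-antral minus primary, which is relative to the other genes of an oocyte and understates the change of low genes. With 1 sample per stage they have no replicate check beyond the spread between oocytes.

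The 10 genes with the largest difference toward secondary-antral oocytes among those without overlap were Omt2b, Omt2a, Klf17, Plac8, Nlrp9c, Fgf8, Grm2, Diras2, Gm3286 and Dusp1, with differences of 6.81 to 5.77. Omt2b, an oocyte maturation gene, was at 14, 8.51, 0, 2.43 and 20.2 RPM in primary oocytes and 417 to 1013 RPM (median 813) in secondary-antral oocytes, an 82.2-fold difference of means. Omt2a, next to it on chromosome 9, was at 11.9, 6.01, 0, 4.87 and 23.6 RPM and 412 to 940.2 RPM (median 819). The 12 oocytes stood in the same order for both genes, and reads of near-identical copies may not be fully separated. Klf17, a Krüppel-like zinc-finger factor, was at 2.16, 5.01, 17.6, 2.43 and 0 RPM in primary and 157 to 511 RPM (median 309.7) in secondary-antral oocytes. Plac8, which encodes a small cysteine-rich protein, was at 6.48, 4.01, 10.6, 0 and 6.73 RPM and 228 to 693 RPM (median 357). Nlrp9c, of the NLR family, was at 7.56, 6.51, 0, 4.87 and 13.5 RPM and 221 to 561 RPM (median 382). In all of these the lowest secondary-antral oocyte was far above the highest primary one.

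Fgf8 encodes a growth factor of the oocyte that acts on cumulus cells. It was at 4.32, 1.50, 0, 4.87 and 16.8 RPM in primary oocytes and 175 to 455 RPM (median 244) in secondary-antral oocytes, with its highest value in secondary-antral oocyte 3. Grm2, a metabotropic glutamate receptor gene, had no read in any primary oocyte and 15.9 to 102 RPM (median 68.1) in secondary-antral oocytes. Counting 3 reads over the pooled primary libraries as its floor (0.766 RPM), it was at least 85.3-fold higher in secondary-antral oocytes. Dusp1, a phosphatase of MAP kinases, had 1 read in primary oocytes, in oocyte 2, and 5.29 to 127 RPM (median 82.9) in secondary-antral oocytes. Its pooled level was 0.255 RPM (95% exact Poisson interval 0.00647 to 1.42) in primary and 86.8 RPM (78.6 to 95.6) in secondary-antral oocytes. The annotated body of Dusp1 spans Ergic1, so its assignment is uncertain. Both Grm2 and Dusp1 were lowest in secondary-antral oocyte 3, at 15.9 and 5.29 RPM. Diras2, a Ras-like small GTPase gene, was at 4.32, 1.50, 0, 0 and 6.73 RPM in primary and 53.2 to 328 RPM (median 170.0) in secondary-antral oocytes, and Gm3286 at 0 to 13.5 RPM and 76.9 to 752 RPM (median 135).

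Toward primary oocytes the 10 largest differences without overlap were those of Hes1, Sohlh1, Tmsb4x, Gatm, Crp, Maml3, Zfp704, A930011G23Rik, Crabp1 and Syt14, from -5.31 to -4.73. Hes1, a transcriptional repressor known as a target of Notch signalling, was at 19.4, 366, 165, 187 and 57.2 RPM in primary oocytes and 0 to 13.7 RPM (median 0) in secondary-antral oocytes. Gatm, an enzyme of creatine synthesis, was at 511, 193, 162, 146 and 121 RPM and 0 to 31.9 RPM (median 5.29). Tmsb4x, which encodes the actin-binding thymosin beta-4, was at 444, 101, 88, 117 and 138 RPM and 0 to 20.5 RPM (median 4.25). In these genes the secondary-antral oocytes were close to 0 and the primary oocytes spread widely. Crabp1, a retinoic acid binding protein gene, was at 119, 21.5, 119.7, 41.4 and 6.73 RPM in primary oocytes and was read in 2 of 7 secondary-antral oocytes, at 2.79 and 3.53 RPM. Crp, the gene of C-reactive protein, was at 389, 37.1, 49.3, 48.7 and 37 RPM and 0 to 29 RPM, and Syt14, of the synaptotagmin family, at 592, 106, 194, 85.1 and 249 RPM and 2.09 to 9.39 RPM. Primary oocyte 1 was the highest for Tmsb4x, Gatm, Crp, A930011G23Rik and Syt14. Maml3, a coactivator of Notch receptors, was at 171, 179.8, 208, 46.2 and 158 RPM in primary and 0 to 21.9 RPM in secondary-antral oocytes, and Zfp704 at 269, 304, 261, 302 and 104 and 0 to 22.2 RPM. In granulosa cells Maml3 and Zfp704 had medians of 136 and 131 RPM, whereas the other 8 genes had medians of 0 to 0.573 RPM. Among these 8 the highest granulosa cell was at 495 RPM for Tmsb4x, 215 for Syt14 and 187 for Hes1. For the rest it was at most 48.2 RPM. Scaled to the spike-in, none of these 10 was higher in primary oocytes without overlap.

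Transcription factors of the early oocyte were divided. Of 9 listed genes, 4 were higher in primary oocytes past the threshold and 0 in secondary-antral oocytes, with a list median of -1.50 beside -0.03 over all genes. Toward primary oocytes 11% of all genes were past the threshold and 2.51% were without overlap. Toward secondary-antral oocytes these shares were 14.3% and 3.87%. The list median was -0.69 without secondary-antral oocyte 3 and turned positive, 0.88, under scaling to the spike-in. Sohlh2, the partner of Sohlh1, was at 13, 56.6, 35.2, 38.9 and 53.8 RPM in primary and 0 to 12.8 RPM in secondary-antral oocytes. Tcf12, a ubiquitous helix-loop-helix factor, was at 428, 447, 673, 338 and 417 RPM and 17.7 to 263 RPM (median 43.9). Both genes and Sohlh1 were without overlap, although primary oocyte 1 and secondary-antral oocyte 1 were again close for Sohlh2 (13 and 12.8 RPM). Figla, a factor needed for primordial follicles and for zona gene expression, was at 374, 99.1, 254, 134 and 236 RPM in primary oocytes and 21.2 to 149 RPM (median 36.2) in secondary-antral oocytes, with a difference of -2.27 and overlap. Nobox, Lhx8, Taf4b and Tbpl2 had differences of 0.57, 0.23, 0.69 and 0.21, within the spread of the oocytes. Tcf3 differed by -1.50, and by -0.69 without secondary-antral oocyte 3, in which it had no read. Nobox, a homeobox factor of early folliculogenesis, was at 105 to 431 RPM in primary and 47.6 to 479 RPM in secondary-antral oocytes.

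Genes of the meiotic chromosome axis, synapsis and recombination were mostly lower in secondary-antral oocytes in RPM. Of 18 in the table, 15 were above the filter, 6 were higher in primary oocytes past the threshold and 0 in secondary-antral oocytes, and the median was -1.36, or 0.57 under scaling to the spike-in. Beside them, 11% and 14.3% of all genes were past the threshold in these directions. Without secondary-antral oocyte 3, Syce1 was no longer past the threshold and Hormad1 was past it in the other direction, at 5 and 1 genes (median -1.07). Rec8, Msh5 and Spo11 were below the filter. Sycp3, a component of the chromosome axis, was at 387, 206, 77.5, 26.8 and 101 RPM in primary and 1.39 to 17.7 RPM (median 10.6) in secondary-antral oocytes, and was the only member without overlap. Sycp1, of the transverse filament of the synaptonemal complex, was at 491, 189, 148, 12.2 and 108 RPM and 0 to 80.8 RPM. Smc1b, a meiotic cohesin subunit, was at 303, 119.7, 979, 489 and 441 RPM and 17.6 to 142 RPM, overlapping through secondary-antral oocyte 1 alone. Stag3, another cohesin subunit, split the primary oocytes: it was at 243, 187, 17.6, 0 and 3.37 RPM in them and at 0 to 10.6 RPM in secondary-antral oocytes. The 3 members with a positive difference were Syce2, Tex12 and Hormad1, at 1.39, 1.36 and 1.34, none past the threshold over all 12 oocytes.

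The zona pellucida genes were read in every primary oocyte and were uneven among them. Zp1, Zp2 and Zp3 encode the glycoproteins of the egg coat. Of these, 2 of 3 were higher in secondary-antral oocytes past the threshold, beside 14.3% of all genes. Zp2 was at 748, 1352, 2503, 3814 and 5418 RPM in primary oocytes 1 to 5 and at 1606 to 5792 RPM (median 2379.6) in secondary-antral oocytes, a difference of 0.30 with full overlap. Zp3 was at 225, 342, 792, 3571 and 3083 RPM and 2382 to 5875 RPM (median 2857), a difference of 1.83 with overlap. Zp1 was at 159, 259, 268, 691 and 942 RPM and 1004 to 1852 RPM (median 1525), without overlap, at a 3.26-fold difference of means. Primary oocytes 4 and 5 had the highest values of each of these genes among the primary oocytes, and the order of the 5 primary oocytes by Zp2 and by Zp1 was that of their reads per ERCC read.

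Of the secreted factors of the oocyte and the receptor Kit, 5 of 6 were higher in secondary-antral oocytes past the threshold, 3 of them without overlap, and the median was 3.74. All genes were past the threshold at 14.3% and without overlap at 3.87% in this direction. Gdf9, a growth factor required for follicles to pass the primary stage, was at 243, 172, 665, 1484 and 1676 RPM in primary oocytes and 4782 to 11859.8 RPM (median 5958) in secondary-antral oocytes, an 8.22-fold difference of means. Bmp15, its close relative, was at 287, 68.6, 116, 70.5 and 209 RPM and 2105 to 4787 RPM (median 3877), a 23.4-fold difference. Neither gene overlapped between the stages, and the primary oocytes were ordered differently for the pair: Gdf9 was highest in oocytes 4 and 5, and Bmp15 in oocytes 1 and 5. Bmp5 was at 0 to 6.73 RPM in primary oocytes and at 2.13 to 235 RPM in secondary-antral oocytes, where oocytes 1 to 3 held 2.13, 29 and 10.6 RPM and oocytes 4 to 7 at least 119 RPM. Bmp6 differed by 1.98 with overlap. Kit, the receptor through which granulosa cells act on the oocyte, was at 604, 153, 257, 654 and 339.9 RPM in primary and 237 to 333 RPM (median 307) in secondary-antral oocytes, a difference of -0.27.

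Oocyte gene families that sit in clusters of similar copies were higher in secondary-antral oocytes nearly throughout, and each family's median kept its sign under every scaling tried. For members that share sequence the level of a single copy is uncertain. Of 7 Obox genes, 4 were above the filter and all 4 were past the threshold and without overlap (median 5.53), while Obox3, Obox6 and Obox8 were below the filter. Toward secondary-antral oocytes 14.3% of all genes were past the threshold and 3.87% without overlap. Obox5 was at 13, 14, 21.1, 4.87 and 50.5 RPM in primary and 318 to 1340.1 RPM (median 1229) in secondary-antral oocytes. Obox7, whose E-boxes are shown above beside those of Obox1 and Obox5, was at 5.40, 4.01, 10.6, 0 and 6.73 RPM and 55.3 to 317 RPM (median 152). Obox2 had a difference of 5.54 beside 5.51, 5.58 and 4.88 for Obox1, Obox5 and Obox7. Its level followed that of Obox1 closely, at 325 and 1597 RPM in secondary-antral oocytes 1 and 7 beside 653 and 3203 RPM. The annotated bodies of Obox1 and Obox2 overlap, so the 2 genes may share reads and may not count as separate members. Among the 7 secondary-antral oocytes, oocyte 1 had the lowest Obox1, Obox2 and Obox7, at 653, 325 and 55.3 RPM, and oocyte 7 the highest Obox1, Obox2 and Obox5.

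All 4 oogenesin genes (Oog1 to Oog4, leucine-rich repeat proteins of the oocyte) were past the threshold and without overlap, with a median of 4.2. The shares of all genes toward secondary-antral oocytes were 14.3% past the threshold and 3.87% without overlap. Oog3 was at 45.4, 36.1, 52.8, 31.6 and 53.8 RPM in primary and 1131 to 1973 RPM (median 1726) in secondary-antral oocytes, a 37.1-fold difference of means with little spread within either stage. The 3 Oosp genes were all past the threshold (median 5.28), and Oosp2 overlapped only through secondary-antral oocyte 3, at 42.3 RPM beside 67.3 RPM in primary oocyte 5. Reads up to 10 kb from the 3′ end were counted for a gene. From Oosp1 this stretch reaches Oosp2, so these genes may not count as separate members. Of 13 Fbxw genes, 12 were past the threshold and 11 without overlap (median 3.74), and these 12 lie together on chromosome 9. Fbxw14, an F-box and WD-40 repeat gene, was at 119, 84.6, 158, 92.4 and 182 RPM and 2335 to 3733 RPM (median 3319). The exception was Fbxw17, which lies apart from them on chromosome 13, at 8.51 to 84.5 RPM in primary and 4.25 to 21.9 RPM in secondary-antral oocytes. All 6 genes of the Tcl1 cluster, relatives of a coactivator of the kinase AKT, were past the threshold and 5 were without overlap (median 3.70). Tcl1 itself differed least, at 395, 149.7, 349, 144 and 552 RPM in primary and 932 to 1464 RPM (median 1382) in secondary-antral oocytes.

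NLR family genes, which encode proteins of the oocyte and early embryo, were split by their level in primary oocytes. Of 12 above the filter 8 were past the threshold and 6 without overlap, with a median of 2.94, and without secondary-antral oocyte 3 these numbers were 9 and 7. Over the 12 oocytes 14.3% of all genes were past the threshold toward secondary-antral oocytes and 3.87% without overlap. Nlrp2 was at 5.40, 4.01, 3.52, 2.43 and 0 RPM in primary and 95.3 to 206 RPM (median 166) in secondary-antral oocytes. Nlrp5, the maternal effect gene also known as Mater, was at 565, 70.6, 1007, 1464 and 2039.5 RPM and 404 to 2107 RPM (median 783), with a difference of 0.42. Nlrp14 likewise differed by 0.95 with overlap. Nlrp5 and Nlrp14 were thus at 1007 and 1475 RPM or more in primary oocytes 3 to 5, whereas Nlrp2, Nlrp9b and Nlrp9c were at most 20.2 RPM in any primary oocyte.

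**Figure D3:**
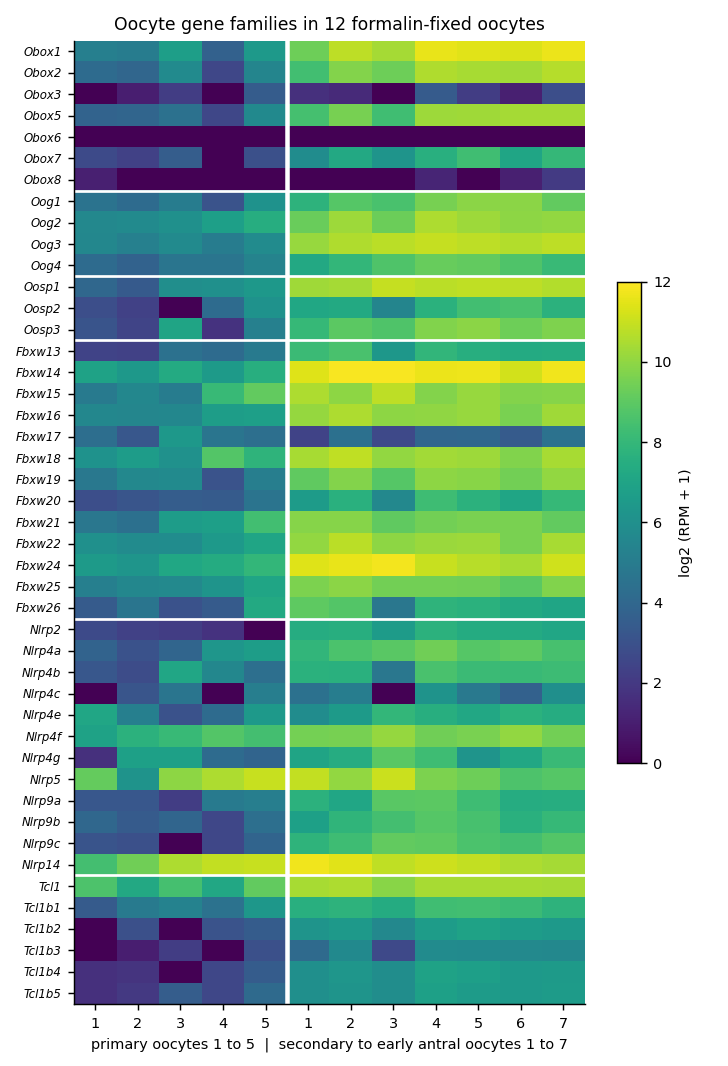
Level as log2 (RPM + 1) (colour scale) of the genes of 6 oocyte families (rows, families divided by white lines) in primary oocytes 1 to 5 and secondary-antral oocytes 1 to 7 (columns, stages divided by a white line). Most rows are brighter in each secondary-antral column. Rows that do not separate the stages include Obox3, Obox6, Obox8, Fbxw17, Nlrp5 and Nlrp14, and 6 of 12 Nlrp rows overlap.

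Nlrp5 belongs to the subcortical maternal complex, a protein assembly beneath the egg surface, of which 2 of 6 genes were past the threshold, with a median of 0.94. Both were past it toward secondary-antral oocytes, as were 14.3% of all genes. Padi6, which is needed for the cytoplasmic lattices of the egg, was at 449, 302, 1908, 4877 and 4519.9 RPM in primary oocytes and 529 to 4133 RPM (median 946) in secondary-antral oocytes. Its highest values were in primary oocytes 4 and 5 and secondary-antral oocyte 1. Ooep was at 355, 403, 785, 1459.6 and 1757 RPM and 870.4 to 2398 RPM (median 1032), with the same 3 oocytes highest. Zbed3, in contrast, was at 113, 78.6, 447, 885 and 1369.8 RPM in primary and 5304 to 8542 RPM (median 7053) in secondary-antral oocytes, without overlap at a 12.4-fold difference of means, and had a median of 189 RPM in granulosa cells. Khdc3 was also without overlap, with a difference of 2.65, and Tle6 differed by 1.28. The members of this complex therefore did not share 1 pattern in RPM.

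Genes for the storage, translation control and decay of maternal mRNA had a median of 1.51, with 6 of 14 higher in secondary-antral oocytes past the threshold and 5 without overlap, or 7 without secondary-antral oocyte 3. Eif4e1b, an oocyte form of the cap-binding protein, was at 17.3, 20.5, 14.1, 31.6 and 26.9 RPM in primary and 540.0 to 1176 RPM (median 914) in secondary-antral oocytes. Btg4, an adaptor of the deadenylase that removes maternal mRNA, was at 10.8, 13.5, 77.5, 41.4 and 47.1 RPM and 492 to 1305 RPM (median 1229). Pabpc1l, the poly(A)-binding protein of the oocyte, was at 1.08, 2.5, 0, 0 and 3.37 RPM and 26.5 to 106 RPM (median 68.3). These and Zar1l and Cnot6l did not overlap between the stages. Zar1, a maternal effect gene, differed by 2.56 and overlapped only through secondary-antral oocyte 3, at 376 RPM beside 487 and 751 RPM in primary oocytes 4 and 5. The RNA-binding protein gene Ybx2 (MSY2), which coats stored mRNA, was at 624, 270.4, 461, 321 and 407 RPM in primary and 211 to 461 RPM in secondary-antral oocytes, a difference of -0.23. Cpeb1, a regulator of cytoplasmic polyadenylation, differed by 0.69 and Ddx6, an RNA helicase of P-bodies, by -1.16, both with overlap.

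Genes of meiotic arrest and maturation had 8 of 14 members past the threshold toward secondary-antral oocytes and 1 toward primary oocytes (median 2.34). The numbers were 9 and 0 (median 2.92) without secondary-antral oocyte 3. Mos, the kinase of the metaphase arrest, was at 27, 8.51, 3.52, 65.7 and 47.1 RPM in primary and 332 to 550.3 RPM (median 398) in secondary-antral oocytes. Plat, tissue plasminogen activator and a known dormant maternal mRNA, was at 19.4, 13, 190.1, 102 and 273 RPM and 588 to 1280.2 RPM (median 1139). Ccnb1, cyclin B1, was at 182, 10.0, 98.6, 51.1 and 162 RPM and 440.1 to 1657 RPM (median 755). These 3 were the members without overlap toward secondary-antral oocytes, beside 3.87% of all genes. Wee2, an oocyte kinase that holds the cell cycle in prophase, differed by 3.18, and Gpr3, the receptor that maintains arrest, by 2.94, both with overlap. Gpr3 and Bub1b were also without overlap when secondary-antral oocyte 3 was left out. Gnas, the G protein subunit through which that receptor acts, was at 1228, 1498, 1528, 1496 and 1239 RPM in primary and 323 to 1052 RPM (median 416) in secondary-antral oocytes, lower without overlap at a difference of -1.52. Adcy3 was the member past the threshold toward primary oocytes, at 1.08, 0, 63.4, 4.87 and 10.1 RPM against at most 3.48 RPM, with its highest value in primary oocyte 3. Its difference of -1.86 became -1.74 without secondary-antral oocyte 3, no longer past the threshold. Cdk1 differed by 0.58, within the spread.

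Of 17 genes of DNA methylation and oocyte chromatin, 8 were past the threshold toward secondary-antral oocytes and 5 without overlap, with a median of 1.47. These shares were 14.3% and 3.87% over all genes. H1foo, the oocyte linker histone, was at 35.6, 22.5, 119.7, 241 and 293 RPM in primary and 902 to 1949.5 RPM (median 1318) in secondary-antral oocytes. Tet3, which oxidises methylcytosine in the zygote, was at 96.1, 55.1, 324, 282 and 182 RPM and 1539 to 2959 RPM (median 1772), and the chromatin chaperone Npm2 differed by 3.04. Dnmt1, the maintenance methyltransferase, ranged over 379, 62.1, 690.1, 2430.2 and 1891 RPM in primary oocytes and overlapped with secondary-antral oocyte 3 alone, at 2319 RPM, the others being at least 3592 RPM. Dnmt3l, the cofactor of methylation in the growing oocyte, was at 0 to 3.52 RPM in primary oocytes and at 0, 46.1, 5.29, 70.4, 49.5, 82.4 and 65.8 RPM in secondary-antral oocytes 1 to 7. Oocytes 1 and 3 thus lay at or near the level of the primary oocytes. Its partner Dnmt3a differed by 0.23 with overlap. Of the subunits of Polycomb complex PRC2, Eed and Ezh2 differed by 3.26 and 2.86 without overlap and Suz12 by 1.91 with overlap. Dppa3, which protects methylation in the zygote, was at 589 to 1372 RPM in primary and 639 to 1180.5 RPM in secondary-antral oocytes, a difference of -0.03.

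Izumo1r (Juno), the egg receptor for sperm, was at 9.72, 9.51, 17.6, 2.43 and 30.3 RPM in primary and 70.2 to 447 RPM (median 323) in secondary-antral oocytes, without overlap. Of the other fertilization genes, Astl, the protease that hardens the zona, differed by 1.81 and Cd9 by 0.88, both with overlap, and Cd81 was lower without overlap, at 90.7, 118, 77.5, 180.0 and 77.4 RPM in primary and 5.29 to 43.8 RPM in secondary-antral oocytes. The 4 genes thus shared no common direction, and 2 were past the threshold toward secondary-antral and 1 toward primary oocytes. Past it in these directions were 14.3% and 11% of all genes, also a background for the connexins below. Gja4, the connexin of the oocyte side of its junctions with granulosa cells, was at 40.0, 24, 151, 105 and 37 RPM in primary and 68.8 to 535 RPM (median 366) in secondary-antral oocytes, a difference of 2.41. It overlapped only through secondary-antral oocyte 3, at 68.8 RPM, and was the 1 of 3 connexins past the threshold. Gja1, the granulosa connexin, differed by 1.14 and had a median of 2252 RPM in granulosa cells.

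In the Bcl2 family, regulators of cell death, 6 of 8 genes were above the filter and no direction prevailed (median -0.08, and 0.10 without secondary-antral oocyte 3). Bcl2l10, a member abundant in oocytes, was at 35.6, 22.5, 109, 9.73 and 77.4 RPM in primary and 609 to 3444 RPM (median 2389) in secondary-antral oocytes, a 43.2-fold difference of means without overlap. Bcl2 was lower without overlap, at 177, 570.4, 95.1, 119 and 50.5 RPM in primary and 5.29 to 46.1 RPM in secondary-antral oocytes, and Bax, a death effector, was lower with overlap at -2.62. Bcl2l10 and Bcl2 thus separated the stages in opposite directions.

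**Figure D4:**
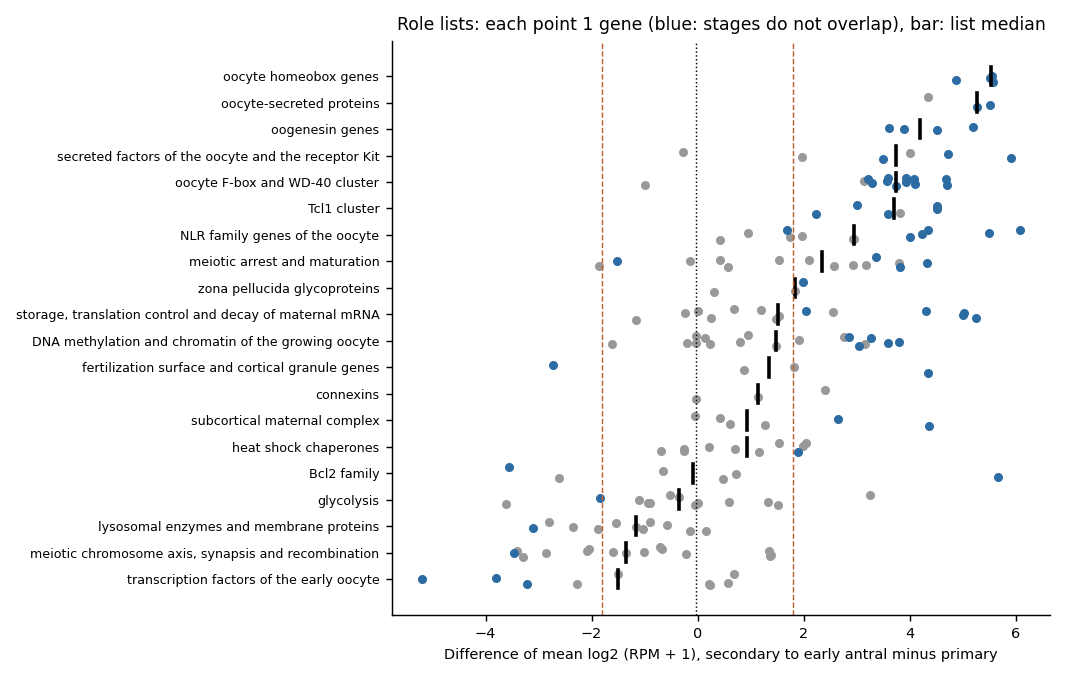
Difference of mean log2 (RPM + 1), secondary-antral minus primary (horizontal axis), of each gene above the filter in 20 lists ordered by median (rows), 1 point per gene, in blue where the stages do not overlap, with the list median as a bar, the thresholds of 1.8 as dashed lines and the median of all genes (-0.03) as a dotted line. The Obox list has the highest median, 5.53, and the early transcription factors the lowest over the 12 oocytes, -1.50, whereas without secondary-antral oocyte 3 they were at -0.69 and the meiotic list was lowest at -1.07. The list of immediate early genes is not drawn.

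Lists of general cell functions differed in how far they lay from the background. Over all genes, 14.3% were past the threshold toward secondary-antral and 11% toward primary oocytes. Ribosomal protein genes had 0 of 83 past the threshold toward secondary-antral and 8 toward primary oocytes. A negative difference was found for 78 of 83, beside 6608 of 12956 over all genes. Higher in primary oocytes without overlap were 14 of 83, beside 2.51% of all genes. There were 4 past the threshold and 17 without overlap when secondary-antral oocyte 3 was left out. The median was -0.95, which became 0.95 under scaling to the spike-in. Their summed level was 34571, 27032, 31115, 50705 and 33228 RPM in primary oocytes and 14074 to 22418 RPM (median 17709) in secondary-antral oocytes, without overlap. Nuclear genes of the respiratory chain had 3 of 79 past the threshold in each direction (3 and 1 without secondary-antral oocyte 3), with a median of -0.58 that turned to 1.35 under scaling to the spike-in, and their sums, 8829.7 to 16879.8 and 5871 to 8782 RPM, did not overlap. Of 13 glycolysis genes 1 was past the threshold toward secondary-antral and 2 toward primary oocytes (median -0.34, and 1.56 under scaling to the spike-in). With secondary-antral oocyte 3 left out the numbers were 1 and 1 and the median -0.08. Lysosomal genes had 4 of 11 past the threshold toward primary oocytes beside 11% of all genes, and a median of -1.17, or 0.31 under scaling to the spike-in. Without secondary-antral oocyte 3 the median was -0.78, and Lamp2 was without overlap as well. Ctsa, a lysosomal carboxypeptidase, was the 1 of them without overlap over all 12 oocytes, at 67, 113, 38.7, 41.4 and 20.2 RPM in primary and 0 to 15.4 RPM in secondary-antral oocytes. Among 10 heat shock chaperones 3 were past the threshold toward secondary-antral oocytes (median 0.94), or 4 without secondary-antral oocyte 3, in which Dnajb1 had no read, and Hsp90aa1 did not overlap, at 544, 872, 1309.8, 1440.1 and 2339 RPM and 3141 to 6948 RPM (median 3726). Of 8 immediate early genes, which respond fast to stimuli and stress, 5 (Fos, Fosb, Jun, Junb and Atf3) were below the filter in all 12 oocytes. Of the 3 above it, 2 were past the threshold toward secondary-antral oocytes. The median was 3.78 over these 3 genes and 0.56 over all 8. The 1 without overlap was Dusp1, already named above with its uncertain assignment, which passed the filter through secondary-antral oocytes alone. Egr1 was at 5.40, 35.6, 3.52, 0 and 0 RPM in primary and 15.4 to 344 RPM (median 51.6) in secondary-antral oocytes, with its highest value in oocyte 3.

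The same comparison was set beside oocytes of alcohol-fixed sections, from separate cells that may share an ovary with these: 14 primary and 30 secondary to antral oocytes by DRaqL-SC3-seq, 6 and 9 by DRaqL-SMART-Seq v4, and 7 and 11 by SMART-Seq v4. The 100 genes with the largest difference toward secondary to antral oocytes and the 100 with the largest toward primary oocytes were taken from the DRaqL-SC3-seq oocytes. In the formalin-fixed oocytes all 100 of the first set were higher in secondary-antral oocytes, 99 past the threshold and 71 without overlap, with a median difference of 4.33. Of the second set, 95 of 100 were lower, 75 past the threshold and 33 without overlap, with a median of -2.63, and 1 was past the threshold in the opposite direction. In the second set 4 genes were below the filter. Of all 12956 genes, 49.0% were higher in secondary-antral oocytes, with a median of -0.03. Past the threshold were 14.3% toward secondary-antral and 11% toward primary oocytes, and without overlap 3.87% and 2.51%. The medians in the DRaqL-SC3-seq oocytes themselves, in which the sets were chosen, were 4.81 and -3.26, and those in the other alcohol-fixed oocytes were 6.42 and -3.24 by DRaqL-SMART-Seq v4 and 5.76 and -2.40 by SMART-Seq v4. Values across methods are set side by side without a test, since each table was made and scaled separately. Of all genes without overlap in the formalin-fixed oocytes, the sets made up 14.1% of those higher in secondary-antral and 10.2% of those higher in primary oocytes.

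Single genes varied around this. Obox1 differed by 5.51 in the formalin-fixed oocytes and by 5.55 in DRaqL-SC3-seq, Oosp1 by 5.51 and 5.46, and Sohlh1 by -5.20 and -5.70. Among the 10 genes with the largest differences toward secondary to antral oocytes in DRaqL-SC3-seq (Fbxw14, Gm13023, Fbxw19, C87977, Oog3, Omt2b, Obox1, Obox2, Umodl1 and Eif4e1b) every gene was without overlap in the formalin-fixed oocytes, at 3.66 to 6.81. Umodl1, for example, was at 7.56, 5.51, 21.1, 4.87 and 13.5 RPM in primary and 85 to 516 RPM (median 348) in secondary-antral oocytes. The 10 with the largest differences toward primary oocytes (Sohlh1, Ptgds, Mageb4, Slc22a17, Maged1, Fam19a1, Wipf3, Zfhx4, Gpr143 and Antxr1) were less uniform in the formalin-fixed oocytes, at -5.20 to -1.47, and 3 of them overlapped. Mageb4 was at 0, 0.501, 42.3, 2.43 and 23.6 RPM in primary and 0 to 10.6 RPM in secondary-antral oocytes. Ptgds, a prostaglandin D synthase, was at 388, 353, 127, 12.2 and 30.3 RPM and 2.09 to 12.5 RPM, and overlapped through primary oocyte 4. Maged1 was at 51.8, 39.1, 806, 613 and 535 RPM and 23.6 to 217 RPM, with primary oocytes 1 and 2 inside the range of the secondary-antral oocytes and a median of 326 RPM in granulosa cells. Fam19a1, a small secreted protein gene, did not overlap, at 1046, 627, 236, 105 and 67.3 RPM against 4.39 to 27.3 RPM, and its order among the primary oocytes was the reverse of that of their ratio to the spike-in. Of the 10 genes with the largest differences toward primary oocytes after formalin, Hes1, Crp and Syt14 had differences of -0.58, -0.23 and -0.78 in DRaqL-SC3-seq, whereas Crabp1 had -3.90 and Tmsb4x -3.41. In DRaqL-SMART-Seq v4 the differences of Hes1, Crp and Syt14 were -4.35, without overlap, -2.08 and -0.93, and in SMART-Seq v4 they were -2.74, -0.25 and -1.96.

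Read as scores, the mean log2 (RPM + 1) of the 100 genes of the first set was 2.82 to 4.01 in primary and 6.53 to 7.96 in secondary-antral oocytes, and that of the 100 genes of the second set 5.03 to 5.69 and 2.37 to 3.38. The oocytes of each stage lay apart on both scores, secondary-antral oocyte 3 included. Primary oocyte 5 had the highest score of its stage on the first set, 4.01, and the highest ratio to the spike-in, 15.3. In a principal component analysis of the 12 oocytes the first component (26.2% of the variance) had primary oocytes at -164 to -21.4 and the secondary-antral oocytes at 60.3 to 105, except oocyte 3 at -75.8. The second component (21.5%) set oocyte 3 apart at 269, the other 11 lying between -73.7 and 12.3. Without that oocyte the first component took 32.9%.

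**Figure D5:**
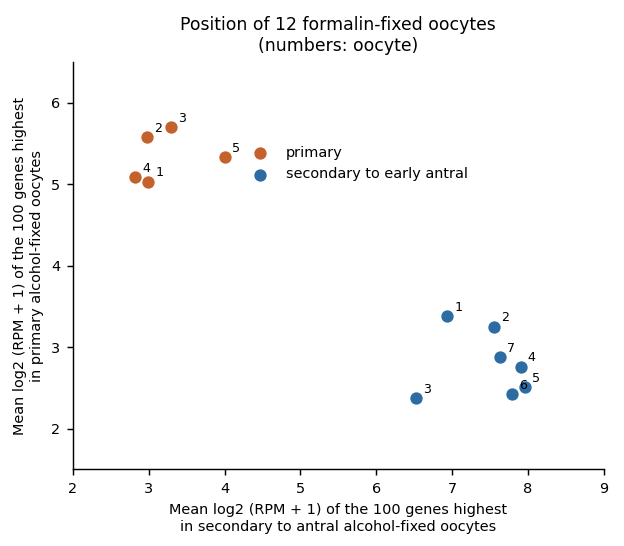
Mean log2 (RPM + 1) of the 100 genes highest in primary alcohol-fixed oocytes (vertical axis) against that of the 100 genes highest in secondary to antral alcohol-fixed oocytes (horizontal axis), both from DRaqL-SC3-seq, in the 12 formalin-fixed oocytes, 1 numbered point each. Primary oocytes (orange) lie at 2.82 to 4.01 on the horizontal axis and secondary-antral oocytes (blue) at 6.53 to 7.96, with no oocyte between them.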

How the data were processed

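Read counts per gene were made by the authors from 3′ sequencing reads: per their methods and processing notes, reads were trimmed with fastp 0.20.0 and cutadapt 1.16, aligned to GRCm38 with HISAT2 2.1.0 and counted with HTSeq 0.10.0, and ERCC reads were counted per spike-in RNA. The strand setting of the counting is not given in the sources used here, so overlapping genes may share reads. Per the paper, a gene's count also took in reads up to 10 kb from its 3′ end. That stretch reaches Oosp2 from Oosp1, Oog2 from C87977 and neighbours within the Tcl1 cluster, so such genes may share reads too. The deposited counts of 12 formalin-fixed oocytes were divided by the reads on protein-coding genes to give RPM, and log2 (RPM + 1) was used with a pseudocount of 1 RPM. Genes with log2 (RPM + 1) above 4 in at least 1 oocyte (12956 of 22060 protein-coding genes) entered the comparison, and a difference of stage means beyond 1.8 was the threshold. Because a sample is a single cell, no label ties it to a mouse and the oocytes may share an ovary, no test was run. The spread is the SD over oocytes, and pooled counts have exact Poisson intervals at 95%, which cover counting error only.

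Genes were named by rule: Obox1, Oosp1 and Sohlh1, the genes of the role lists with the largest difference or without overlap, the 10 largest differences in each direction among genes without overlap, and the 10 largest in each direction in alcohol-fixed DRaqL-SC3-seq oocytes. Other genes of the lists were added as examples after their values were seen. The members and lists were chosen with earlier results of these data known. List symbols shared by several gene identifiers, 2 in all, were read by the first. A further 130 columns of other cells in the tables were not used. Promoter sequences came from RefSeq and gene bodies from GENCODE M21. Alternatives were the pseudocount, the scaling (all genes, TMM, upper quartile, thinning to 188906 reads), the group median, the filter, the threshold and leaving out each oocyte. Scaling to ERCC was added after the data were seen. Scripts were tested on simulated data and ran in Python 3.11.15 with numpy 2.4.6, pandas 2.3.3, scipy 1.17.1 and matplotlib 3.10.9, and edgeR 4.0.16 gave the scaling factors alone.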

Additional observations from a re-analysis of the deposited data

Results flagged for a closer look

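Values far from the other oocytes of their stage, by Dixon's criterion at 95%, were found in 17 of 104 groups of values examined. Many of these groups are genes named for their differences or measures that depend on each other, so no chance rate is set beside this number. Secondary-antral oocyte 3 was lowest in detectable genes, at 8201 both at its own depth and in the thinned libraries, lowest in reads per ERCC read at 0.683, and at -75.8 and 269 on the first and second principal components. It was also the lowest secondary-antral oocyte for Grm2, at 15.9 RPM, and for Dusp1, at 5.29 RPM. Secondary-antral oocyte 1 had 6.75% of its reads in its 10 highest genes.

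Primary oocyte 1 was lowest for Sohlh1, at 32.4 RPM, and highest for Tmsb4x at 444 RPM, Crp at 389 RPM and Antxr1 at 181 RPM, and it had the highest stroma marker sum, 876 RPM. The part of other cells' RNA in these values was not tested. Single values that stood apart were Dusp1 in primary oocyte 2 at 0.501 RPM, Crp in secondary-antral oocyte 2 at 29 RPM, Maml3 in primary oocyte 4 at 46.2 RPM, Zfp704 in primary oocyte 5 at 104 RPM and Syt14 in secondary-antral oocyte 4 at 2.09 RPM.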

How the results depend on the processing

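No paired analysis was possible because no test was made and the labels do not tie oocytes of the stages to a mouse. Over the other settings tried without the spike-in, 714 of 741 values of the 39 named genes moved by less than 1 SD over oocytes, 27 moved by more and 0 changed sign. Of the genes in role lists, 0 of the 87 past the threshold changed sign in these settings, but 34 of the 91 others did. A pseudocount of 10 RPM left 646 genes past the threshold toward secondary-antral and 463 toward primary oocytes, with medians of 3.14 and -1.73 for the 100 genes highest in secondary to antral and the 100 highest in primary alcohol-fixed oocytes, and a pseudocount of 0.1 moved the latter to -3.10. A threshold of 1 gave 3471 and 3290 genes. Upper-quartile scaling left 184 genes without overlap toward primary oocytes. Leaving out 1 oocyte at a time, genes without overlap numbered 508 to 1012 toward secondary-antral oocytes, with the highest without secondary-antral oocyte 3, and 338 to 582 toward primary oocytes, with 582, 499 and 492 without primary oocytes 1, 2 and 4. Fewer oocytes make an overlap less likely by construction. Genes past the threshold numbered 1642 to 2294 and 1177 to 1584 in these settings. Scaling to ERCC, chosen after seeing the data, gave 6418 and 130 genes past the threshold, 112 and 2 without overlap, and medians of 5.83 and -0.96. The same scaling without secondary-antral oocyte 3 gave 8871 and 76, 3787 and 2, and 6.56 and -0.47, and Maged1 turned to 0.87. It moved the median of all genes by 1.67, or 2.35 without that oocyte. The cause was not tested. At 188906 to 1997001 reads per oocyte, a single read is worth between 0.501 and 5.29 RPM, so levels of a few RPM rest on single reads in the shallow libraries.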
